A study of Homo sapiens and Homo sapiens
Mus musculus and Mus musculus with 200 samples.

Results

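The elements described here fell in H3K27ac, the histone acetylation mark of active enhancers and promoters, within 3 h of TWIST1 degradation and were still lower at 24 h. Loss below means such a fall, and some elements kept part of the mark. They were chosen among 213151 merged ATAC-seq peaks of human cranial neural crest cells from the counts of the TWIST1FV line. A count was divided by its library's total and multiplied by 1000000 to give CPM, and log2(CPM + 1) was averaged over 2 replicates at each time. A member had a mean of at least 5 CPM at 0 h and was lower by at least 1 on that log2 scale at both 3 h and 24 h. The rule found 4327 members, 2.03% of all peaks and 12.3% of the 35191 peaks with at least 5 CPM. A further 3552 peaks of that level passed at 24 h alone and 379 at 3 h alone. Since the TWIST1FV values chose the members, they are given as a description without a test.

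TWIST1 is a basic helix-loop-helix transcription factor that binds E-boxes as a dimer and is required for mesenchyme of the face, skull vault and limb. ALX1, ALX4, MSX1 and PRRX1 are homeodomain factors of the same mesenchyme, which recognise short AT-rich sites. Enhancers, the distal elements that raise transcription of genes elsewhere on the chromosome, gain and lose H3K27ac with their activity, and loss of the mark after a factor is removed is a usual readout of dependence on it.

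All H3K27ac libraries came from cranial neural crest cells differentiated from H9, an established human embryonic stem cell line. Each of 6 lines was treated with 500 nM dTAGV-1, a compound that sends proteins carrying a matching degron tag to the proteasome, and sampled at 0, 3 and 24 h in 2 replicates. The labels name DMSO as the vehicle and do not say whether the 0 h cells received it. WT cells carry no tag. The tag is on TWIST1 in TWIST1FV, on ALX1 in ALX1FV, on PRRX1 in PRRX1FV and on MSX1 in MSX1FNV, and ALX1FV ALX4- carries tagged ALX1 and lacks ALX4. TWIST1FV is 1 clone (c64) and both MSX1FNV replicates carry the same clone label (c93/69). The 2 replicates are different clones in ALX1FV, ALX1FV ALX4- and PRRX1FV, and WT has no clone label. Occupancy came from 29 peak lists: TWIST1, V5 and AP2a in the crest cells, V5 in HEK293 (a human embryonic kidney line) transfected with V5-tagged TWIST1 with or without ALX4-Flag, and TWIST1 in RS4;11 (a human lymphoblast line).

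Total counts per H3K27ac library ran from 5137169 to 9173063. In every library at least 76.7% of counts of 20 or more were even, so both mates of a read pair may have been counted, and counting error may then be larger than the counts imply. Starts of all 14 crest marker genes carried at least 5 CPM of H3K27ac in every 0 h library. Summed CPM at starts of glial, neuroectoderm, epithelial and endothelial markers was at most 11.1 in any line, and of the pluripotency markers only LIN28A was marked. Mouse chromatin was added to the WT and TWIST1FV libraries as a spike-in and its reads were not used, so a shift of all peaks together could not be seen. In bulk samples, fewer cells with a mark and less of the mark per cell cannot be told apart.

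To show what these elements look like, 100 bases are printed for each of the 6 members with the deepest 24 h loss among the 94 that hold an E-box and a homeodomain site exactly 4 bases apart. The first E-box searched was CAGATG, which reads CATCTG on the other strand. CATATG was the second spelling of the E-box, a palindrome, and CAGCTG the last, also a palindrome. One homeodomain site was TAATTA, a palindrome, and the other was TAATTG, which reads CAATTA on the other strand. Each is the plus strand of hg38, 5′ to 3′, with the E-box and the homeodomain site in capitals.
KCNMA1 +129.1 kb, intron, chr10:76963084-76963183: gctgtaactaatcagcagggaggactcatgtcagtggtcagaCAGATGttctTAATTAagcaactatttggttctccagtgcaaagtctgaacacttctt
PRDM1 -90.8 kb, intergenic, chr6:105902684-105902783: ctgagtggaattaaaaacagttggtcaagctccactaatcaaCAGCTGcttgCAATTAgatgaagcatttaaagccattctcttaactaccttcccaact
DAB2IP +159.9 kb, intron of TTLL11, chr9:121902492-121902591: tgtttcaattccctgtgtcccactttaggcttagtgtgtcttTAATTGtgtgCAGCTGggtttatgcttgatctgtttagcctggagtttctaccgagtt
LATS2 -17.4 kb, intergenic, chr13:21079133-21079232: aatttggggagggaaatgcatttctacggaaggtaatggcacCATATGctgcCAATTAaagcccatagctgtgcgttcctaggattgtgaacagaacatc
VCX3B +126.7 kb, intron of ANOS1, chrX:8591676-8591775: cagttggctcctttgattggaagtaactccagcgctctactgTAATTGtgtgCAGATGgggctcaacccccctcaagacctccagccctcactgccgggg
MAN1C1 -42.8 kb, intron, chr1:25666546-25666645: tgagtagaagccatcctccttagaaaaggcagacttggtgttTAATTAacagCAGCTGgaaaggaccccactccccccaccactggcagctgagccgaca

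Elements are named by the protein-coding gene with the nearest annotated start (GENCODE 44) and the signed distance in the gene's direction, so that minus is upstream. The nearest gene is a position, and whether an element acts on it was not measured. The 6 sequences show both orders of the sites, E-box first in 3 and homeodomain site first in 3, with all 3 E-box spellings present. In 5 of them the pair lay within 50 bp of the TWIST1 peak summit of WT cells, and in the LATS2 element it lay 476.5 bp away (mean over the 2 lists).

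H3K27ac at the KCNMA1 element, near the gene of a calcium-activated potassium channel, was 35.4 and 23.8 CPM at 0 h, 5.86 and 4.28 at 3 h and 2.12 and 1.86 at 24 h of TWIST1FV. At the PRDM1 element, near the gene of a zinc finger repressor active in the early crest, it was 22.7 and 16.1, then 6.14 and 4.14, then 1.41 and 1.33 CPM. At the MAN1C1 element, near a gene of protein glycosylation, it was 58.3 and 41.6, then 20.9 and 17.6, then 7.78 and 5.31 CPM. In all 3 elements every treated library was lower than both 0 h libraries, and both 24 h libraries were lower than both 3 h libraries.

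Across the members the loss deepened with time. The median member had 15.9 and 14.1 CPM in the 2 libraries at 0 h, 5.03 and 4.55 at 3 h and 3.06 and 2.79 at 24 h, and the members together held 10.4% and 9.24% of all counts at 0 h against 2.28% and 2.01% at 24 h. The median change was -1.37 at 3 h and -1.91 at 24 h on the log2(CPM + 1) scale, which understates the loss of low elements. At 24 h 3796 members (87.7%) were lower than at 3 h. Against 0 h, 1899 members were lower at 24 h by at least 2 and 278 by at least 3. Only 33 had regained 0.5 or more between 3 h and 24 h. The 5 members just inside the threshold and the 5 peaks just outside it all rounded to -1.0 in the weaker of their 2 changes. By edgeR at a false discovery rate (FDR) of 0.05, 3751 members were lower at 3 h, where 4.28% of all tested rows were called lower, and 4292 at 24 h, where 9.49% were; the rule used both contrasts and nothing is read from these counts.

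The replicate that a choice did not use gives the same measure apart from that choice. Of 4599 peaks chosen on replicate 1 alone, 98.8% were below 0 at both times in replicate 2 and 63.5% passed the full rule there, against 11.8% of all peaks with at least 5 CPM. Chosen on replicate 2 and read in replicate 1, an alternative added after the data had been seen, 98.5% of 4286 were below 0 and 66.6% passed. Their median change in the replicate not used for the choice was -1.23 at 3 h and -1.77 at 24 h in the first direction and -1.29 and -1.85 in the second. Both replicates are the same clone.

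**Figure D1:**
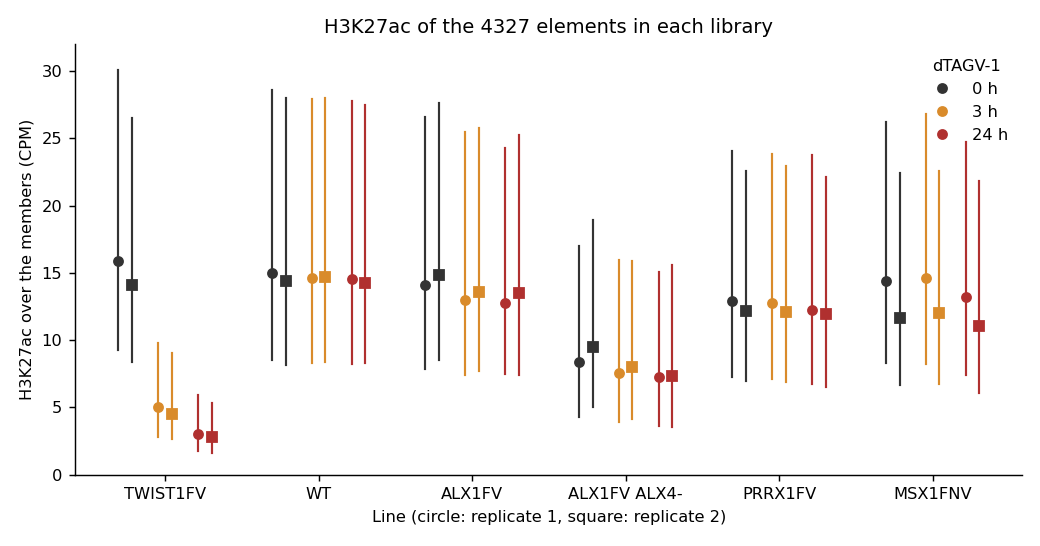
H3K27ac of the 4327 members in each of the 36 libraries, in CPM on the vertical axis, by line on the horizontal axis. Points are the median member and bars the quartiles. TWIST1FV falls from about 15 to about 3 CPM, ALX1FV ALX4- starts at 8.40 and 9.48, and the other 4 lines stay between 11.0 and 15.0 CPM.

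The deepest losses among members at or above the median level were near genes of varied function. At PAPPA +97.2 kb (chr9:116250784-116251284, hg38, an intron of PAPPA, whose protease frees insulin-like growth factors), H3K27ac was 43.8 and 44.1 CPM at 0 h, 5.30 and 9.09 at 3 h and 1.18 and 0.531 at 24 h, a change of -4.62 at 24 h. The 2 neighbouring elements of the same intron, PAPPA +97.8 kb and PAPPA +98.4 kb, changed by -4.05 and -3.84. TFAP2A +354.0 kb (chr6:10058179-10058679, intergenic), near the gene of a crest specifier, went from 56.1 and 42.0 to 9.49 and 9.09 and then 1.18 and 1.06 CPM, and its neighbour TFAP2A +353.4 kb changed by -3.98 at 24 h. In both places the loss took in several adjacent elements.

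ZFHX3 -80.1 kb (chr16:73971110-73972929, in a lncRNA gene), near a zinc finger homeobox gene, had 99.5 and 77.1 CPM at 0 h, 11.9 and 11.1 at 3 h and 4.01 and 2.39 at 24 h. XYLT1 -290.0 kb (chr16:17760694-17761194, intergenic), near the gene of an enzyme that starts proteoglycan sugar chains, had 45.4 and 41.7, then 5.86 and 10.7, then 0.707 and 1.99 CPM. At both elements most of the mark was gone by 3 h and the 24 h libraries were lower again. Further deep losses were at ANO2 +133.9 kb (-4.45 at 24 h), PLEKHG7 -47.0 kb (-4.28), ECI2 -118.2 kb (-4.26) and LMNTD1 -68.5 kb (-4.24).

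**Figure D2:**
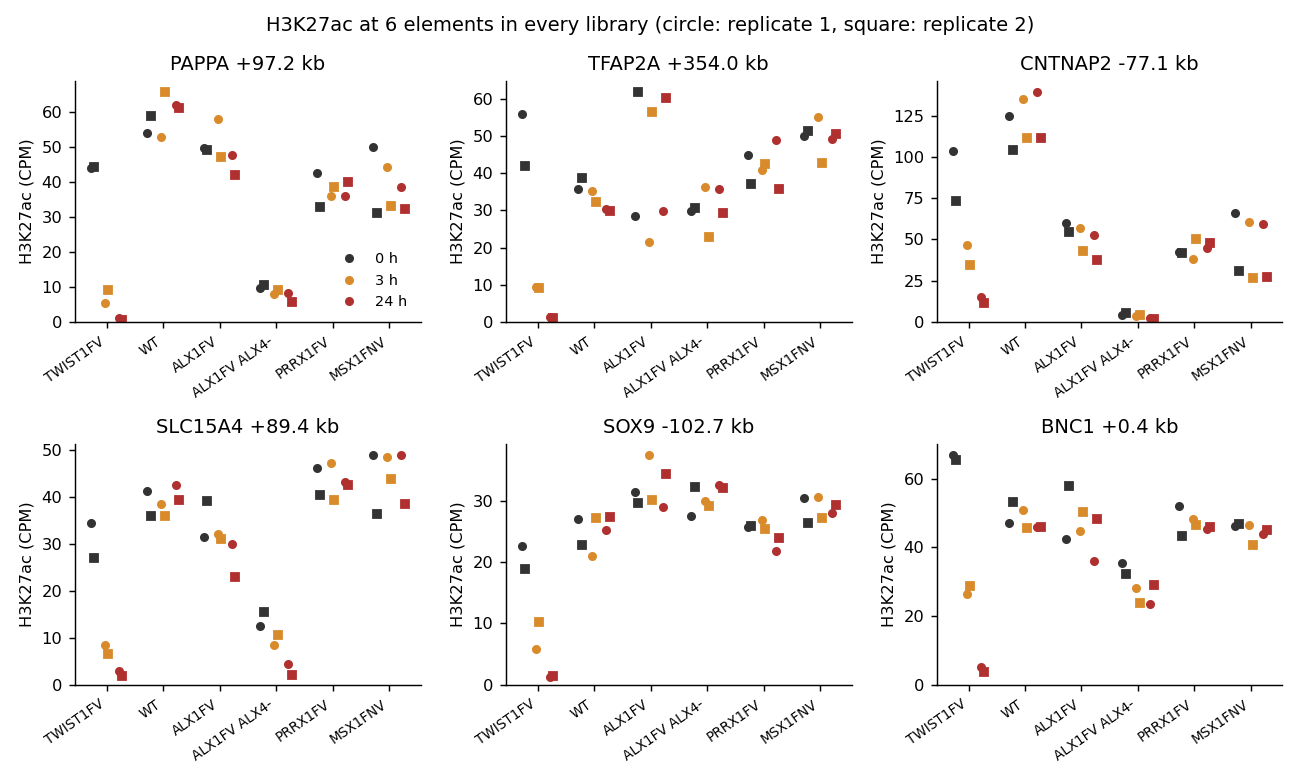
H3K27ac in CPM (vertical axes) at 6 members in every library, by line (horizontal axes), with 1 point per library and time by colour. All 6 fall in TWIST1FV. The PAPPA and CNTNAP2 elements are low in ALX1FV ALX4- at every time, the SLC15A4 element falls further there after dTAGV-1, and the SOX9 element in that line stays between 27.5 and 32.6 CPM.

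The members lay far from gene starts. Only 61 (1.41%) were within 500 bp of a protein-coding start, against 39.3% of the other peaks with at least 5 CPM. The median distance was 80.0 kb, against 38.3 kb for the 18730 other peaks of that level more than 500 bp from a start, called other distal elements below (a comparison group added after the data had been seen, which includes peaks lower at 24 h alone). By annotation 46.1% of members were intronic, 36.5% intergenic and 15.2% in lncRNA genes, with 1.36% in UTRs and 0.90% in coding exons. Their median GC content was 42.9%, against 48.3% in other distal elements. Of the members 1749 (40.4%) had another within 10 kb and 2721 (62.9%) within 100 kb, so they are not independent of one another. The same shares were not computed for other peaks.

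The 61 members at starts included some of the better marked promoters. SCML4 -0.2 kb (chr6:107731987-107733234), at the start of a Polycomb-related gene, had the highest level of them, 171 and 154 CPM at 0 h, 95.1 and 66.8 at 3 h and 65.7 and 62.8 at 24 h. BNC1 +0.4 kb (chr15:83282691-83283496), at the start of the gene of a basonuclin zinc finger protein, had 67.0 and 65.3, then 26.4 and 28.6, then 5.07 and 3.72 CPM. The SCML4 start kept part of its mark at 24 h while BNC1 lost nearly all of it. The changes at the other named starts at 24 h were -2.95 at BMX, -2.73 at AGPAT3, -2.32 at SEPTIN9, -2.27 at KANK4, -1.84 at MFAP2, -1.23 at RASL12 and -1.17 at ZNF106.

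The members were nearest to 2251 genes, and the genes with the most members were spread over adhesion, guidance and matrix. ROBO2, a receptor for Slit guidance ligands, was nearest to 14 members of 23 elements with at least 5 CPM, with changes at 24 h from -3.02 to -1.21. ZFHX3 had 13 of 38. LIMCH1, an actin regulator, had 12 of 27, the ephrin ligand gene EFNA5 12 of 40 and the semaphorin gene SEMA5A 12 of 23. LMNTD1 had 11 of 19, SUGCT 11 of 24 and BNC2, a basonuclin gene of mesenchyme, 11 of 37. The iron regulator IREB2 had 10 of 12, VPS13D 10 of 15, RPS23 10 of 20 and the mesenchymal cadherin gene CDH11 10 of 32. The share of elements that were members ran from 29.7% at BNC2 to 83.3% at IREB2 among these genes. It was 12.3% of all elements of that level and 18.6% of those away from starts. These genes were chosen for their many members, which by itself raises their share, so nothing is read from that difference.

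Gene lists were counted by nearest gene, as a description. Of 638 elements nearest to 68 face and limb mesenchyme transcription factors, 98 (15.4%) were members, and 34 of the genes had at least 1. SOX9 -102.7 kb (chr17:72018092-72018592), near the master gene of cartilage, had 22.7 and 18.8 CPM at 0 h, 5.86 and 10.2 at 3 h and 1.18 and 1.33 at 24 h. TBX15 +310.3 kb changed by -3.06 and NFIB +28.6 kb by -3.01 at 24 h, and MSX1 and OSR1 were each nearest to 6 members. Of 327 elements of 27 neural crest specifiers 41 (12.5%) were members, with ETS1 nearest to 9 and NR2F2 to 5. ID4 -117.4 kb (chr6:19719552-19720374), near an inhibitor of helix-loop-helix factors, had 34.0 and 38.2, then 11.7 and 14.2, then 2.12 and 2.39 CPM.

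Genes of epithelial-mesenchymal transition and cadherins had 26 members of 139 elements (18.7%). ZEB2 -61.5 kb (chr2:144581624-144582124), near a repressor of E-cadherin, had 48.7 and 28.9 CPM at 0 h, 16.5 and 11.8 at 3 h and 6.60 and 4.52 at 24 h, and 5 members were nearest to ZEB2. Collagen and matrix genes had 70 of 358 (19.6%), with SPON1 nearest to 6 and PAPPA to 5, and COL15A1 -63.2 kb changed by -3.84 at 24 h. Craniosynostosis genes had 13 of 172 (7.6%), of which MSX2 and RUNX2 had 4 each. MSX2 +74.2 kb (chr5:174798529-174799029), near a homeobox gene of the skull sutures, had 16.4 and 15.0, then 3.07 and 4.81, then 0.943 and 2.66 CPM.

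Among signalling genes the share of members differed between pathways. BMP and TGF-beta genes had 55 members of 226 elements (24.3%), with SMAD3 nearest to 8 and BMP7 and BMPR1B to 7 each. BMPR1B +2.4 kb (chr4:95106518-95107018), in an intron of a BMP receptor gene, had 17.2 and 18.6 CPM at 0 h, 5.58 and 7.35 at 3 h and 0.707 and 2.92 at 24 h. Axon guidance, ephrin and endothelin genes had 91 of 422 (21.6%), WNT genes 36 of 270 (13.3%) and FGF, PDGF and hedgehog genes 26 of 363 (7.2%). Among WNT genes FZD1 +301.6 kb, near a receptor, changed by -3.78 and DKK2 -36.4 kb, near an antagonist, by -3.65 at 24 h. Genes of neurons and glia had 49 of 156 (31.4%), with the adhesion gene NTM nearest to 6, and limb patterning genes had 8 of 42 (19.0%). Like these shares, which count elements at starts too, the share over all elements with at least 5 CPM was 12.3%. The shares were not tested, and the lists were drawn up with earlier results of these data known.

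Outside TWIST1FV no line lost the mark at these elements as TWIST1FV did. In WT, which has no degron, the median member stayed between 14.3 and 15.0 CPM in all 6 libraries, and edgeR called 0 of 4327 members at 3 h and 0 at 24 h, as it called 0.0% of all rows. Unadjusted p was under 0.05 for 42 members higher and 56 lower at 3 h and for 34 and 81 at 24 h, and DESeq2 also called 0. Counts by unadjusted p, here and below, lack the share of all rows under the same cutoff, so nothing is read from them. In simulated data made from the WT libraries the same test recovered 46 of 50 rows lowered by 2 and 16 of 50 lowered by 1 on the log2 scale, so losses of the size seen in TWIST1FV at 24 h were within its reach.

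Without a replicate block, dTAGV-1 gave no call among the members in PRRX1FV and MSX1FNV. Whether tagged PRRX1, MSX1 or ALX1 was lost after treatment was not measured here. In PRRX1FV 0 of 4324 tested members were called at either time, where 0.0% of all rows were called at 3 h and 0.000827% at 24 h. Unadjusted p was under 0.05 for 80 members higher and 75 lower at 3 h and 63 and 129 at 24 h. In MSX1FNV 0 of 4322 were called, where 0.00179% and 0.00448% of all rows were, with 82 higher and 36 lower at 3 h and 55 higher and 165 lower at 24 h by unadjusted p. DESeq2 called 0 members in both lines at both times. With the replicate number as a block 4 members were called in MSX1FNV at 24 h, 1 lower and 3 higher. For calls with a block or by DESeq2, here and below, the share of all rows is not given. The median member changed by -0.03 in PRRX1FV and -0.08 in MSX1FNV at 24 h.

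Treatment of ALX1FV also gave no call, with small changes in 1 direction. In ALX1FV the median member had 14.1 and 14.8 CPM before treatment. It had 12.998 and 13.6 CPM after 3 h and 12.8 and 13.5 after 24 h, so no treated library overlapped a 0 h library. The median log2 fold change was -0.09 at 3 h and -0.12 at 24 h, and 0 of 4325 members were called, as 0.0% of all rows were at either time. By unadjusted p 2 members were higher and 38 lower at 3 h and 4 higher and 93 lower at 24 h, and DESeq2 called 0.

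In cells with tagged ALX1 that lack ALX4, a few members were lower after dTAGV-1. In ALX1FV ALX4- the median member had 8.40 and 9.48 CPM at 0 h, 7.56 and 8.00 at 3 h and 7.25 and 7.37 at 24 h, so neither treated time overlapped 0 h. The median log2 fold change was -0.20 at 3 h and -0.27 at 24 h. At 3 h 0 of 4280 tested members were called, as 0.0% of all rows were, with 21 higher and 505 lower by unadjusted p and 0 by DESeq2. Without the share of all rows under that cutoff, nothing is read from the 21 and 505. At 24 h 20 members were lower, where 0.027% of 122000 rows were, and 1 was higher, where 0.00082% were. The 21 called members were among 34 called rows in all. The clone number pairs these libraries, and with clone as a block 93 members were called at 24 h, 91 of them lower, and 1 at 3 h. The share of all rows called with the block is not given. DESeq2 called 14 members at 24 h, and 0 were called without either 24 h library and 42 without replicate 1 at 0 h.

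The member with the largest fall there was SLC15A4 +89.4 kb (chr12:128734028-128735146, intergenic), near a lysosomal transporter gene. It had 12.5 and 15.5 CPM at 0 h, 8.40 and 10.49 at 3 h and 4.46 and 2.06 at 24 h in ALX1FV ALX4-, against 31.5 and 39.3, 32.2 and 31.1, and 30.1 and 23.1 in ALX1FV. Its log2 fold change at 24 h was -2.10 ± 0.32 (SE, adjusted p = 0.003 by edgeR). PLEKHG7 -47.6 kb (chr12:92654970-92655470, intergenic) went from 9.31 and 10.8 to 5.32 and 6.07 and then 2.79 and 3.24 CPM (-1.75 ± 0.33, adjusted p = 0.035). SPTSSA +38.7 kb (chr14:34423085-34423902, an intron of EGLN3, an oxygen-sensing hydroxylase), went from 11.6 and 15.5 to 6.30 and 5.80 and then 4.74 and 3.54 CPM (-1.71 ± 0.30, adjusted p = 0.016). All 3 were lower in this line than in ALX1FV before treatment.

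The member that rose was KCTD10 +22.8 kb (chr12:109435799-109436563, an intron of the myosin gene MYO1H). It had 20.2 and 19.5 CPM at 0 h, 30.4 and 29.9 at 3 h and 39.7 and 32.4 at 24 h in ALX1FV ALX4- (0.84 ± 0.16, adjusted p = 0.05 by edgeR after rounding, under the threshold before it). In TWIST1FV it went from 6.29 and 4.88 to 2.51 and 2.01 and then 0.943 and 1.59 CPM, and in WT it was at 2.77 and 2.54 at 0 h. It was thus higher without ALX4 at every time than in WT or TWIST1FV.

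Whether the response to dTAGV-1 differs between ALX1FV and ALX1FV ALX4- was tested as an interaction of line and time over 12 libraries. It called 0 of 4325 members at 3 h and 0 at 24 h, as it called 0.0% of all rows at both times. Unadjusted p was under 0.05 for 99 members with a stronger fall and 12 with a weaker one at 3 h and for 198 and 5 at 24 h, and DESeq2 called 0. With clone as a block 11 members were called at 24 h, all with the stronger fall in ALX1FV ALX4-. The fold rule itself, applied to each other line, was met by 3 members in ALX1FV ALX4-, where 0.027% of all peaks with at least 5 CPM met it, by 1 in MSX1FNV, where 0.0107% did, and by 0 in WT, ALX1FV and PRRX1FV, where 0.0% did. In TWIST1FV 12.3% met it.

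Before any treatment the members were lower in ALX1FV ALX4- than in ALX1FV. Their median level was 8.40 and 9.48 CPM in the 2 clones without ALX4 and 14.1 and 14.8 in the 2 clones with it, and the groups did not overlap. By edgeR 1615 members (37.3%) were lower, where 2.9% of all rows were, and 37 (0.855%) were higher, where 0.976% of all rows were. The median log2 fold change of members was -0.74, 3849 (89.0%) were below 0 and 1259 were called lower by at least 1. Other distal elements had a median of -0.14 with 9.01% called lower, and elements lower at 24 h alone had -0.515 with 20.8%. Without replicate 1 of ALX1FV ALX4- 756 members were called lower and 13 higher. The lines differ by clone and differentiation as well as by ALX4, and these cannot be told apart.

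With members split in 4 by their change at 24 h in TWIST1FV, from the deepest to the weakest, the median log2 fold change of ALX1FV ALX4- over ALX1FV was -0.99, -0.75, -0.65 and -0.58. This is a description: the split uses the change that chose the members, a deep change on this scale needs a high level at 0 h, and the part of that level was not tested.

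**Figure D3:**
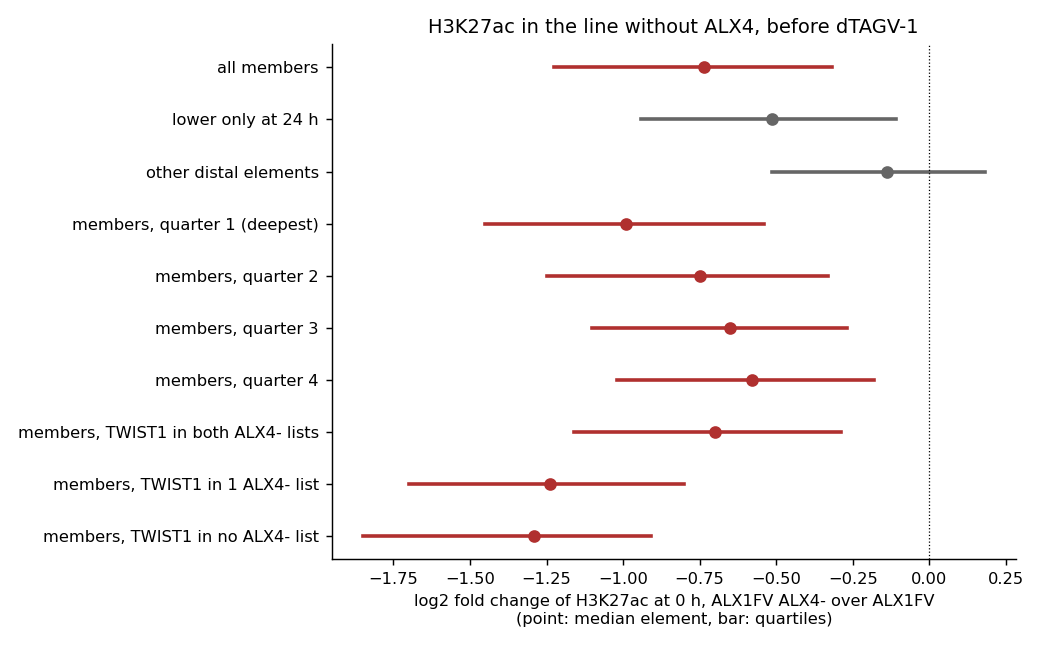
Log2 fold change of H3K27ac at 0 h in ALX1FV ALX4- over ALX1FV (horizontal axis) for groups of elements (vertical axis), with the median element as a point and quartiles as bars. Members have a median of -0.74, other distal elements -0.14, and members with TWIST1 peaks in WT but in neither list of the line without ALX4 -1.29.

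Some members were almost without the mark in the cells lacking ALX4. CNTNAP2 -77.1 kb (chr7:148261606-148263132, an intron of a neurexin family gene) had 3.86 and 5.46 CPM at 0 h there, against 60.1 and 54.2 in ALX1FV and 125 and 104 in WT (-3.69 ± 0.25 against ALX1FV, adjusted p = 3.2e-11 by edgeR). NR2F2 +138.3 kb (chr15:96471061-96471849, intergenic), near a nuclear receptor gene of the crest, had 1.59 and 1.44 against 16.1 and 24.9 in ALX1FV (-3.81 ± 0.34, adjusted p = 3.9e-09), and WT had 6.93 and 7.06. SMYD3 +109.6 kb (chr1:246307571-246308071, an intron of a lysine methyltransferase gene) had 1.13 and 2.01 against 22.3 and 17.7 (-3.75 ± 0.35, adjusted p = 1.4e-08). At all 3 both clones lacking ALX4 were below every 0 h library of the other 5 lines.

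Of the deepest members in TWIST1FV, the PAPPA and XYLT1 elements were also low without ALX4, whereas the TFAP2A element and the SOX9 element of the gene lists were not called. PAPPA +97.2 kb had 9.76 and 10.49 CPM in ALX1FV ALX4- against 49.6 and 48.9 in ALX1FV (-2.35 ± 0.20, adjusted p = 3.9e-09) and XYLT1 -290.0 kb 10.2 and 13.5 against 36.4 and 54.6 (-2.02 ± 0.20, adjusted p = 5e-08), both by edgeR. TFAP2A +354.0 kb had 29.8 and 30.7 against 28.6 and 61.8, where the clones of ALX1FV differed more than the lines (-0.65 ± 0.22, adjusted p = 0.092). SOX9 -102.7 kb had 27.5 and 32.3 against 31.5 and 29.7 (-0.10 ± 0.19, adjusted p = 0.89), so its groups overlapped.

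A few members were higher without ALX4. CRHBP -9.9 kb, near the gene of a binding protein for a stress hormone, had 80.7 and 70.5 CPM in ALX1FV ALX4-, 14.3 and 32.1 in ALX1FV and 4.62 and 5.37 in WT (1.63 ± 0.23 against ALX1FV, adjusted p = 1.9e-05 by edgeR). It fell from 28.3 and 20.9 to 10.8 and 6.91 CPM at 24 h in TWIST1FV. RASEF +19.5 kb (1.93) and XRCC4 +85.4 kb (1.63) were also higher than in ALX1FV.

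Against WT the members were also lower in the line without ALX4 and less so in the other edited lines. In ALX1FV ALX4- 2221 members (51.3%) were lower than in WT, where 6.48% of all rows were, and 127 were higher, where 4.27% were, with a member median of -0.87. In PRRX1FV 721 were lower (2.28% of all rows) and 50 higher (1.13%), with a median of -0.38, and in MSX1FNV 635 were lower (2.15%) and 61 higher (1.34%), with a median of -0.34. In ALX1FV 34 were lower (0.237% of all rows) and 36 higher (0.341%), with a median of -0.11. Elements lower at 24 h alone were close to the members in PRRX1FV (15.1% called lower, median -0.36, against 16.7% of members). The same held in MSX1FNV (12.95%, median -0.31, against 14.7% of members). In ALX1FV ALX4- 37.7% of them were called lower, with a median of -0.64. Over all elements with at least 5 CPM, which are closer to the members in level than all rows, the shares called lower were 19.99% with a median of -0.21 in ALX1FV ALX4-, 8.18% with -0.18 in PRRX1FV, 7.4% with -0.19 in MSX1FNV and 0.88% with -0.11 in ALX1FV, where 0.79% of members were. These 4 contrasts share the WT libraries, and their counts rest on single libraries: of 771 calls in PRRX1FV 242 were left without WT replicate 1, 395 without WT replicate 2, 232 without PRRX1FV replicate 1 and 160 without PRRX1FV replicate 2. Of 696 in MSX1FNV 220 and 339 were left without WT replicate 1 and 2 and 98 without MSX1FNV replicate 2, and the 70 in ALX1FV became 4 and 11 without WT replicate 1 and 2 and 198 without ALX1FV replicate 1, and without ALX1FV replicate 2 65 were lower and 25 higher. Scaled by library size alone, the split for PRRX1FV was 433 lower and 85 higher, for MSX1FNV 389 lower and 109 higher and for ALX1FV 23 lower and 52 higher, and the median of all rows moved by over 0.1 against WT for ALX1FV ALX4- (0.04 to 0.19), PRRX1FV (0.03 to 0.17) and MSX1FNV (0.01 to 0.14).

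Marker levels moved with this contrast. Summed H3K27ac at starts of the 14 crest markers was 889 to 919.8 CPM in ALX1FV ALX4- and 986.4 to 1050.1 in ALX1FV. Within that sum the markers moved in both directions. ALX4 was lower, at 160 and 147 CPM against 227 and 249, and so was PAX3, at 5.67 and 10.9 against 35.8 and 18.9. Also lower were ALX1, at 118 and 133 against 178 and 144, and TFAP2B, at 29.5 and 37.2 against 38.7 and 50.1. MSX1 was at 30.2 and 16.2 against 40.05 and 35.01 and ETS1 at 12.6 and 12.8 against 18.7 and 14.8. PRRX1 was higher, at 73.7 and 83.6 against 56.8 and 43.1. So were TWIST1, at 53.9 and 64.5 against 43.7 and 44.4, and NR2F1, at 63.8 and 60.6 against 50.2 and 50.9. At the other crest markers the libraries of these lines overlapped. LIN28A was at 184 and 163 CPM against 122 and 128, while ZFP42 was at 0.91 or less in these 4 libraries. The neuroectoderm markers summed to 4.0 to 4.9 CPM in ALX1FV ALX4- and 4.4 to 4.8 in ALX1FV. POU5F1 and NANOG had no peak at their starts. The part of these markers in the lower level of the members was not tested.

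TWIST1 itself occupied nearly all members. In WT at 0 h TWIST1 peaks overlapped 96.7% ± 0.39 of them (SD, n = 2 lists), and 4138 members (95.6%, Wilson 95% interval 94.98 to 96.2%) had one in both lists, against 67.8% of other distal elements and 92.8% of elements lower at 24 h alone. At 3 h of dTAGV-1 in WT the share was 96.1% ± 0.26. In TWIST1FV it was 92.0% ± 2.79 at 0 h and 1.29% ± 0.03 at 3 h, when the lists shrank from 33479 and 25034 peaks to 835 and 739. The TWIST1 peaks at members thus went from nearly all listed to nearly none within the time in which the mark fell. A separate TWIST1 list of unedited crest cells (Abcam antibody) overlapped 96.1%. Over the 7 lists at 0 h, 3590 members (83.0%) were in every list and 77 (1.78%) in none.

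The peaks at members ranked high in their lists. Ranked by the authors' q value within the WT list, the median peak at a member was at the 91.8th and 90.4th percentile of the 2 lists, with a fold enrichment of 40.4 and 35.6. Peaks at other distal elements were at the 77.3rd and 75.1st percentile with 17.8 and 16.7. All values are the authors' own per peak, and library depth behind the lists is not known. SRGAP1 +150.2 kb, a member of the composite set near a Slit-Robo pathway gene with only 9.30 and 10.3 CPM of H3K27ac at 0 h, had TWIST1 peaks at the 97.7th and 96.1st percentile.

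In the line without ALX4 TWIST1 peaks still overlapped 89.9% ± 0.96 of members (n = 2 lists), at a median percentile of 86.6 and 84.6. Members split by this occupancy differed in H3K27ac: 3735 members with TWIST1 in both WT lists and both lists of ALX1FV ALX4- had a median of -0.70 against ALX1FV, 243 with it in 1 of the latter had -1.24, and 160 with it in neither had -1.29, with 83 of the 160 (51.9%) called lower. The shares called lower among the 3735 and the 243 members were 36.6% and 51.4%. Among other distal elements the same split gave -0.20, -0.40 and -0.69, with 10.9%, 15.6% and 22.8% called lower. SMYD3 +109.6 kb was 1 of the 160, whereas the CNTNAP2 and NR2F2 elements had TWIST1 peaks in both lists of each line. List lengths were 59282 and 49107 in WT and 52890 and 43274 in ALX1FV ALX4-.

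The tagged homeodomain factors were listed at few peaks, and those of ALX1 lay on members at a higher share than those of MSX1, of whose peaks 10.0% and 14.0% lay on members. V5 peaks of ALX1FV overlapped 442 members (10.2%) in replicate 1 and 119 (2.75%) in replicate 2, from lists of 1389 and 376 peaks, and 31.4% of the peaks of each list lay on members. Other distal elements were overlapped at 4.15% and 1.18%. In ALX1FV ALX4- V5 peaks overlapped 6.12% and 8.16% of members (lists of 920 and 1116 peaks), against 3.12% and 3.55% of other distal elements. In MSX1FNV the shares were 0.116% and 0.901%, against 0.155% and 0.977% of other distal elements (lists of 50 and 278 peaks). The PRRX1FV lists held 2 and 1 peaks and none lay on a member. Such short lists cannot show where a factor is absent.

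AP2a, a crest factor that binds GC-rich sites, had peaks at a smaller share of members than of other distal elements, a difference that was not tested. They overlapped 19.8% and 22.6% of members with the Novus Bio and the Cell Signaling antibody (1 library each), against 33.8% and 36.6% of other distal elements. In RS4;11 lymphoblasts, which express TWIST1, its peaks overlapped 466 members (10.8%, 9.88 to 11.7%) against 27.2% of other distal elements, from a list of 70826 peaks. Intervals here and below cover counting error only.

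HEK293 cells given TWIST1 with or without ALX4 show what TWIST1 occupies at the same places in another cell type. With TWIST1 alone V5 peaks overlapped 8.23%, 5.85% and 9.96% of members in the 3 replicates (8.01% ± 2.07), and with ALX4 22.1%, 26.1% and 30.6% (26.3% ± 4.29). Every library with ALX4 was above every library without it, a difference of 18.3 percentage points or 3.28-fold, with p = 0.10 by a two-sided exact permutation test, the smallest that 3 against 3 allow. By replicate number the ratios were 2.68, 4.47 and 3.08 (exact sign-flip p = 0.25, the smallest for 3 pairs). The pUC19 control list held a peak at 1 member.

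Other distal elements went from 19.8% ± 6.21 to 26.8% ± 5.91, a ratio of 1.36 with overlapping libraries (exact p = 0.30), and elements lower at 24 h alone went from 13.3% to 26.8%. The ratio of the members was above that of other distal elements in each of the 3 replicates (1.17, 1.79 and 1.26 for the latter). List lengths differed, from 22465 to 56014 peaks with TWIST1 alone and from 29430 to 65005 with ALX4. At 397 members (9.18%) a peak was listed in all 3 libraries with ALX4 and in none without, and at 15 the reverse held; in other distal elements the former share was 4.14%. These 397 included KCNMA1 +129.1 kb, PRDM1 -90.8 kb and SRGAP1 +150.2 kb of the composite set, ID4 -117.4 kb, MSX2 +74.2 kb and BMPR1B +2.4 kb.

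**Figure D4:**
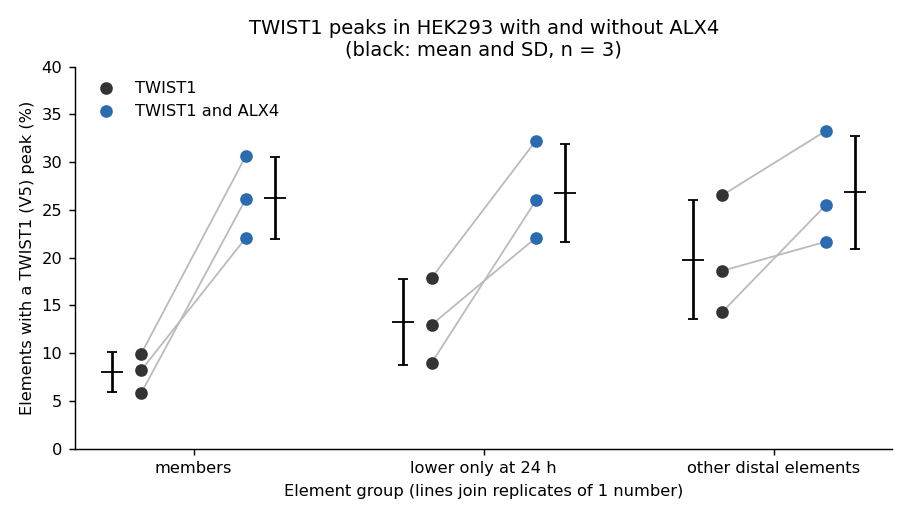
Share of elements with a TWIST1 (V5) peak in HEK293 (vertical axis, percent) in 3 element groups (horizontal axis). Points are replicates without and with ALX4, joined by replicate number, and black marks are mean and SD. Members go from 8.01% to 26.3% with no overlap, and other distal elements from 19.8% to 26.8% with overlap.

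The sequence of the members differed from that of other distal elements, in a window of 250 bp on each side of the centre of each. At least 1 E-box was in 79.6% of members and 69.9% of other distal elements. CAGATG was in 56.7% against 44.8% and CATATG in 20.4% against 9.86%, while CAGCTG was in 34.3% against 39.4%. Elements lower at 24 h alone had an E-box in 80.0%, CAGATG in 57.0%, CATATG in 14.2% and a homeodomain site in 34.9%. A homeodomain site was in 43.3% against 30.3%, and a TFAP2 site (GCCNNNGGC) in 12.4% against 24.9%. AP-1 sites (TGANTCA, 15.99% against 14.8%) and SOX sites (ACAAAG or ACAATG, 56.0% against 50.9%) differed less. Both strands were searched, and the part of the lower GC content of members in these shares was not tested. Over all 213151 peaks the shares were 63.6% for an E-box and 30.2% for a homeodomain site.

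An E-box and a homeodomain site 4 bp apart were found in 94 members (2.17%, 1.78 to 2.65%), against 1.09% of other distal elements and 0.598% of all peaks. Among elements lower at 24 h alone the share was 1.38%. At the other gaps from 0 to 12 bp between 10 and 30 members had the pair, the 30 at 2 bp. Other distal elements also had the pair most often at 4 bp, 204 of them against 18 to 40 at the other gaps. The share of members was the higher at every gap, as at 0 bp (0.347% against 0.166%) and 5 bp (0.3% against 0.149%). The 4 bp spacing was therefore not particular to the members. A pair of E-boxes 5 bp apart was in 1.53% of members against 0.609%. All 94 members with the composite pair had TWIST1 peaks in both WT lists, and in 77 the pair was within 50 bp of the summit (median 21.5 bp).

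Members with the composite pair were called lower without ALX4 in a smaller share than the rest, a difference that was not tested. Their median change at 24 h in TWIST1FV was -1.83, against -1.91 in the rest, and their median in ALX1FV ALX4- against ALX1FV was -0.52 with 20 of 94 called lower (21.3%), against -0.74 and 37.7% in the rest. Against WT 29.8% of them were called lower in that line, and 51.8% of the rest. KCNMA1 +129.1 kb had 25.6 and 29.9 CPM in ALX1FV ALX4- against 39.9 and 34.6 in ALX1FV (-0.49 ± 0.18, adjusted p = 0.14 by edgeR). PRDM1 -90.8 kb had 2.27 and 4.60 against 12.5 and 17.4 (-2.22 ± 0.31, adjusted p = 1.2e-05). SRGAP1 +150.2 kb had 4.77 and 2.59 against 7.22 and 9.89 (-1.26 ± 0.36, adjusted p = 0.04). Elements with the same 4 bp gap thus ranged from no call to a log2 fold change of -2.22 without ALX4. The order and spelling of their sites differed.

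**Figure D5:**
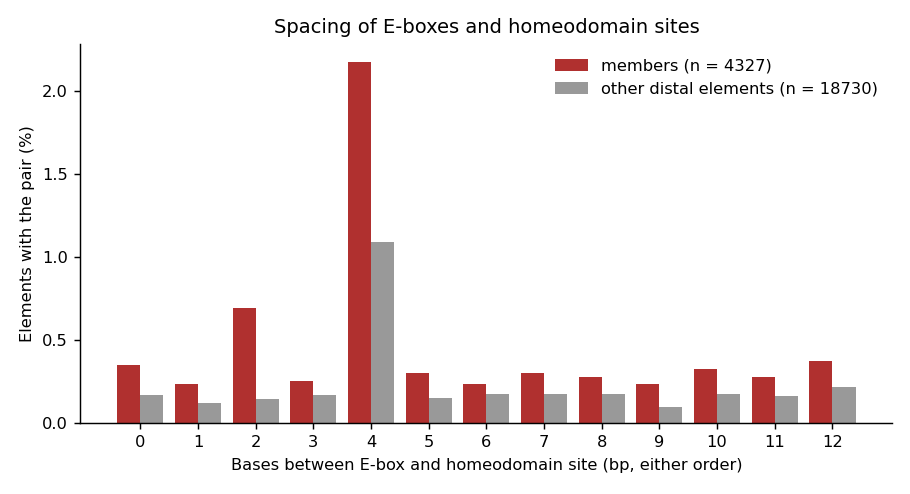
Share of elements (vertical axis, percent) with an E-box and a homeodomain site at each spacing from 0 to 12 bp (horizontal axis), in either order. The bar at 4 bp reaches 2.17% of members and 1.09% of other distal elements, and no other spacing exceeds 0.693% of members.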

How the data were processed

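H3K27ac was read from 36 libraries of 6 lines. The authors deposited raw counts over merged ATAC-seq peaks on hg38, not normalised. Their 29 peak lists used here give the fold enrichment of each peak and a -log10 q value per peak, by the standard column order of the deposited files, each list from 1 library. Per the submitters' processing notes, Bowtie2 2.4.1, SAMtools 1.10, MACS2 2.2.7.1 and deepTools 3.5.0 were used, with no role stated.

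Counts were tested with edgeR 4.0.16 (R 4.3.3), using quasi-likelihood F tests, TMM scaling, the filterByExpr filter on low counts and Benjamini-Hochberg adjustment over all rows at 0.05: each line alone for time, and the 10 libraries at 0 h of the 5 lines other than TWIST1FV for differences between lines. Standard errors are those of log2 fold changes. DESeq2 1.42.0 was an alternative. The test was checked on simulated data. Overlap needed 1 bp (bedtools 2.31.1). Sequences and annotation came from hg38 and GENCODE 44 (pysam 0.24.0, Python 3.11.15). Exact tests used scipy 1.17.1. Precision is limited by 2 replicates a group, and p-values measure the spread between these samples. Where the labels name no separate clones (WT, TWIST1FV, MSX1FNV), that spread may be technical.

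Members, gene lists and tests were chosen with earlier results of these data known. Named elements are the 10 deepest at 24 h among members at or above the median level, the 15 genes nearest to most members, up to 4 elements per gene list, the members called in a contrast (3 per direction where over 10), the 10 deepest with the composite pair, and the 10 highest at starts. Not every element or gene that this rule gives is reported here.

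In ALX1FV, ALX1FV ALX4- and PRRX1FV the labels tie each replicate number to 1 clone, so the numbers pair the times within a line. Same-numbered libraries deviated together there with a correlation of at least 0.58, 0.10 and 0.09, and in TWIST1FV, MSX1FNV and WT of at least 0.36, 0.27 and 0.23, which pairs the times there by the data rather than the labels, and the values given are without a block unless stated.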

Additional observations from a re-analysis of the deposited data

How the results depend on the processing

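With thresholds of -1.5 and -0.75 the rule gave 1462 and 6543 members, and with each library left out 3958 to 5327. DESeq2 called 115 members for ALX1FV against WT, against 70. Without the filter on low counts 6 members were called at 24 h in ALX1FV ALX4-. With the replicate block 93 were called there, 1 at 3 h, 4 at 24 h in MSX1FNV and 11 for the interaction at 24 h, and the block moved no other count of calls by over 1.5 times. Between lines the numbers did not pair the samples (correlations of -0.16 to 0.08). Leaving out 1 library at a time gave 2157 to 3293 members at 3 h in TWIST1FV, 0 to 2 and 0 to 42 at 3 h and 24 h in ALX1FV ALX4-, 0 to 1 at 24 h in MSX1FNV, 4 to 198 for ALX1FV against WT, 160 to 395 for PRRX1FV, 98 to 504 for MSX1FNV and 769 to 1653 for ALX1FV ALX4- against ALX1FV. With 1 library in an arm, its spread is assumed to be that of the other groups, and between lines the lowest counts came without ALX1FV ALX4- replicate 1 (against ALX1FV), WT replicate 1 (ALX1FV), PRRX1FV replicate 2 and MSX1FNV replicate 2. Over time they came without TWIST1FV replicate 1 at 0 h and without either 24 h library of ALX1FV ALX4-. Requiring a summit inside the element, TWIST1 peaks overlapped 82.8% of members and RS4;11 peaks 8.94%, and with a -log10 q of at least 5 TWIST1 peaks overlapped 96.1% and AP2a peaks 17.3%. The composite pair was in 1.29% within 100 bp on each side of the centre and in 1.06% with CAGATG alone. Of the alternatives computed, 182 moved no count of calls, both directions together, by over 1.5 times and no value beyond its spread, but some moved the count in 1 direction by more, as for PRRX1FV and MSX1FNV with library size alone. Since the peak lists carry no read depth, differences between lists cannot be weighed against depth.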
